A study of Mus musculus with 34 samples.

Results

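Cultures of mouse embryonic stem cells lacking the long noncoding RNA Hdn were compared by RNA sequencing with wild-type cultures on day 3 of differentiation. The comparison used every library whose label names day 3, 3 from wild-type cells and 3 from Hdn null cells, which are 6 of the 34 samples of the series. The other samples are undifferentiated cells and days 4 to 6 of both genotypes, which share the deposited expression table of 30 libraries, and heart and chromatin-contact samples that were not analysed here. Wild-type cells were the F1(G4) line, a hybrid of the 129S2 and C57Bl6J strains, and the mutants are labelled as an Hdn mutant on the same strain background. Both genotypes were kept in 2i medium, freed of feeder cells, aggregated in hanging drops, plated on fibronectin and cultured in serum-free medium with 20 ng/mL of BMP4, so all 6 libraries carry the BMP4 treatment. The submitters' design statement speaks of Brachyury mutants, and the growth protocol attached to these libraries describes dissected hearts, so the groups rest on the titles and genotype labels. The labels give neither the sequence change of the mutant allele, nor the number of mutant clones, nor whether replicates were separate cultures. The p-values below therefore measure the spread between libraries of the same group, which may be technical. For most tests that spread was estimated from all 30 libraries of the table and not from these 6 alone.

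Hdn, listed in the table as 5033428I22Rik, is transcribed from the interval just beside Hand2, a transcription factor gene needed for heart and limb development. Mouse embryonic stem cells held in 2i resemble the naive epiblast before implantation. On leaving this state they shut down a network of factors that includes Klf2, Klf4, Esrrb and Zfp42, pass through a primed state, and under BMP and Wnt signals can enter the primitive streak, from which the mesoderm of the heart, blood and extraembryonic tissues arises. Mouse stem cells treated with BMP4 can also express genes of the trophoblast, the outer lineage that builds the placenta.

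The 6 libraries held an inferred 43.3 to 68.4 M reads (M, mega), and 10873 to 11297 genes reached 1 RPKM (reads per kilobase of transcript, relative to the library's total reads) in each. Values are given as scaled RPKM, the deposited RPKM divided by a median-ratio size factor for the library, and libraries are listed as replicates 1 to 3 of each genotype. Across genes, log2 values correlated at 0.9875 to 0.9896 between wild-type libraries, at 0.9903 to 0.9954 between mutant libraries and at 0.9713 to 0.9802 between genotypes, which is a description across genes that are not independent. Wild-type replicate 1 stood apart from the other libraries. It held 1012 inferred reads of the fibroblast collagen Col3a1, against 9 and 13 in the other wild-type libraries and 7, 4 and 6 in the mutants, and 58 reads of the adult globin Hbb-bs, against 0 and 1 and against none in any mutant library. The summed level of the 9 fibroblast and feeder markers was 137 scaled RPKM in that library, 71.8 and 56.8 in the other wild-type libraries and 46.8 to 50.2 in the mutants. Acta2, a smooth muscle actin gene that early mesoderm also expresses, alone made up 125, 64.6 and 49.8 of these sums in wild type and 36, 37.3 and 42.7 in the mutants. The summed level of the 12 mature heart and red cell markers was 6.13 there, against 2.41 and 1.95 in wild type and 1.11 to 1.81 in the mutants, with Cox8b at 0 or 1 read in every library. No member of these marker lists was called between genotypes, of 7 fibroblast and 11 heart and red cell genes tested. For the heart and red cell genes this is a weak check, since some libraries of other stages that share the spread held such reads. Standard errors were 1.14 for Hbb-bs and 0.98 for Myl2 on the log2 scale. Wild-type replicate 1 also had the lowest value of all 6 libraries for each of the primitive streak markers T, Mixl1, Eomes, Mesp1, Evx1 and Fgf8. Each call that rests on it is therefore also given without it, while list medians and uncalled changes include it.

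Among primitive streak markers T and Fgf8 were the high ones on day 3 in both genotypes, and Eomes, Mixl1 and Mesp1 were lower. T (Brachyury), the streak transcription factor, was at 9.4, 65.0 and 123 scaled RPKM in wild type and at 72.2, 106 and 190 in the mutants. Fgf8, a streak growth factor, stood at 83.9 to 178 in wild type and 205 to 288 in the mutants. Eomes was at 1.6, 3.31 and 6.4 in wild type and 6.68, 6.67 and 10.5 in the mutants, Mixl1 at 0.350 to 1.83 and 0.654 to 3.28, and Mesp1 at 0 to 0.936 and 1.35 to 21.6. The lateral plate factor Hand1 was abundant, while Foxf1, Pdgfra, Kdr, Gata4 and Gata6, the other lateral plate markers examined, were at 1.07 scaled RPKM or less in every library. Among trophoblast markers Elf5 did not pass the filter on low values, Tpbpa was at or near 0, and Cdx2 was at 0.355 to 0.812 in wild type and 0.521 to 1.75 in the mutants.

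Hdn itself was barely transcribed at this stage, so day 3 offers only a weak check of the genotype labels. It is annotated on chromosome 8 (mm10), chr8:57332435-57354580, and inferred reads were 2, 4 and 0 in wild type and 0 in all 3 mutant libraries. Over the wild-type libraries the mean was 0.00323 ± 0.0031 (SD, n = 3, scaled RPKM), against 0 in the mutants, a difference that did not pass an exact two-sided permutation test (p = 0.4, the smallest possible with 3 against 3 being 0.1). Gm34030, another listed gene of the locus, had 0, 1 and 0 reads in wild type and none in the mutants.

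Its neighbour Hand2 was also close to the detection limit, but its few reads came almost all from mutant cultures. There were 2, 1 and 1 inferred reads in wild type and 47, 12 and 66 in the mutants, out of 182.9 M and 156.2 M pooled reads. The ratio of the pooled counts was 36.6 (95% exact interval 13.9 to 136, covering counting error only). In scaled RPKM the means were 0.00993 ± 0.00549 and 0.325 ± 0.203 (SD, n = 3), the groups did not overlap, and the exact two-sided permutation test gave p = 0.1, the smallest it allows. On the log2 scale with its added constant of 0.5 the change was 0.66 and did not pass the limma test (adjusted p = 0.51). The divergent transcript Hand2os1 had no read in wild type and 3, 0 and 13 in the mutants, at least 4.52-fold higher by the exact 95% limit of the count ratio, and 6.24-fold against a floor of 3 counts over the group, both for counting error only. Since the use of strand in counting is not given, reads of Hand2 and Hand2os1 cannot be told apart where they overlap. Hpgd, the gene of a prostaglandin-degrading enzyme in the same neighbourhood, went the other way, with 53, 95 and 63 reads in wild type and 18, 5 and 19 in the mutants. Its count ratio was 0.233 (0.163 to 0.326, counting error only), and its log2 change of -0.88 had a limma adjusted p of 0.017 but missed the required size of 1. None of the 7 tested genes of the locus list was called.

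Across the transcriptome, falls outnumbered rises. Of 14196 genes tested with limma, 124 (0.873%) were higher and 352 (2.48%) were lower in Hdn null cells, 476 (3.35%) in all, where a call needs a Benjamini-Hochberg adjusted p below 0.05 and a difference of 1 or more on the log2 scale. The 352 genes that fell had a median level of 6.46 scaled RPKM in wild type and 1.77 in the mutants, and the 124 that rose went from 3.42 to 9.56. Mutant and wild-type values did not overlap for 124 of the 124 and 349 of the 352, against 5995 (42.2%) of all genes tested. The median log2 change of all tested genes was -0.01. In bulk RNA a lower level may come from fewer cells of a type or from less RNA per cell, and the 2 cannot be told apart here.

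**Figure D1:**
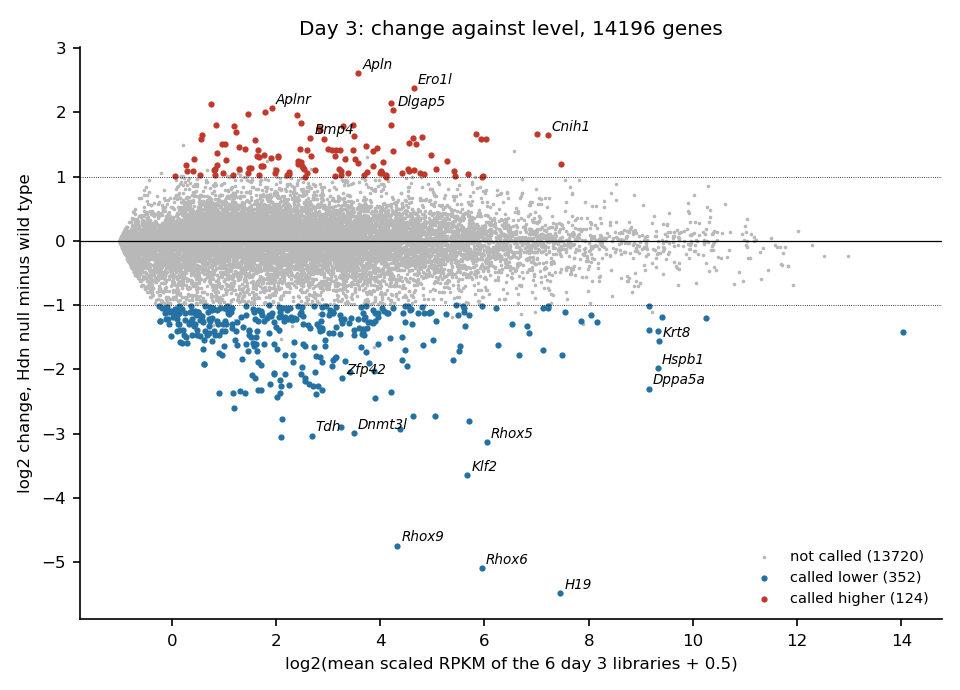
Each point is 1 of the 14196 tested genes, with the log2 of its mean level over the 6 day 3 libraries (scaled RPKM + 0.5) on the horizontal axis and its log2 change, Hdn null minus wild type, on the vertical axis, where dotted lines mark a change of 1. Red points are the 124 genes that rose and blue points the 352 that fell, and the falls reach larger sizes (H19 at -5.48) than the rises (Apln at 2.61).

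Genes of naive pluripotency fell broadly. Of the 23 on the list, all tested, 14 fell, against 2.48% of all genes tested, and none rose. The list's median log2 change was -1.41, against -0.01 for all genes. The 14 comprised 7 of 13 transcription factors and 7 of 10 other markers. Klf2, a Krüppel-like factor that sustains the naive state, was at 99.7, 74.1 and 108 scaled RPKM in wild type and 5.97, 7.33 and 7.59 in the mutants. That is 13.5-fold lower by the ratio of means (log2 change -3.65 ± 0.63, SE, limma adjusted p = 0.00022). Zfp42, which encodes the stem cell zinc finger protein Rex1, was at 17.8, 13.8 and 13.9 in wild type and 2.74, 3.59 and 2.87 in the mutants (log2 change -2.13 ± 0.16, limma adjusted p = 5.7e-09). Both genes were low in every mutant library and neither group overlapped the other. Esrrb, an orphan nuclear receptor of the network, went from 6.95, 2.95 and 3.49 to 0.522, 0.558 and 0.615 (log2 change -2.14 ± 0.29, limma adjusted p = 1.3e-05). Nr0b1 (Dax1), a nuclear receptor without a DNA-binding domain, went from 3.23, 0.974 and 1.69 to 0.0755, 0.137 and 0.113. Klf4, one of the reprogramming factors, went from 3.8, 1.42 and 1.89 to 0.532, 0.457 and 0.583. In all 3 of these the highest wild-type value was that of replicate 1, and without that library they were still called.

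The promoters of Klf2 and Zfp42 are printed because both factors fell in every mutant library and both lie on chromosome 8. Each covers 250 bases before and 50 after the annotated start (RefSeq, GRCm38.p6, 5′ to 3′ on the gene's strand), with every CG pair in capitals. Klf2 is at chr8:72318812-72319111 on the plus strand and Zfp42 at chr8:43306960-43307259 on the minus strand.
Klf2: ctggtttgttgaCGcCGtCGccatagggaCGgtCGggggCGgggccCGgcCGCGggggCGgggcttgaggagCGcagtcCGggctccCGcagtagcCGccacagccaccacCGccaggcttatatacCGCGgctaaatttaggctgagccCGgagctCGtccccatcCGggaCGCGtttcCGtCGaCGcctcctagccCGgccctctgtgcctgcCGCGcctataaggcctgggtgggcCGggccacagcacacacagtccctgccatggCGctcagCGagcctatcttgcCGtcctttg
Zfp42: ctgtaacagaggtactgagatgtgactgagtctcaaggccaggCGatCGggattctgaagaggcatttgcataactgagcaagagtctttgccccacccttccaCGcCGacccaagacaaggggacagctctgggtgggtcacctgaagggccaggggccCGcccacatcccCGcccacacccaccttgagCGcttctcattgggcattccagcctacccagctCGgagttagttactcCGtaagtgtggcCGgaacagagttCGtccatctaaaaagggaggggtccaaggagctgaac
The Klf2 promoter holds 32 CG pairs in 300 bases and 69.3% G or C, and 91.4% of the 32851 promoters of the same length hold as many pairs or fewer. The Zfp42 promoter holds 11 pairs and 57.7% G or C, and 60.4% of promoters hold as many or fewer. CG reads the same on both strands, and these counts describe the letters only.

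Other members of the naive list fell too. Tdh, the threonine dehydrogenase that feeds the one-carbon metabolism of mouse stem cells, went from 16.1, 7.49 and 9.36 to 0.763, 1.07 and 0.708 (log2 change -3.03 ± 0.3, limma adjusted p = 2.1e-07). Dppa5a, which encodes an RNA-binding protein of stem cells, was at 1219.5, 883 and 731 scaled RPKM in wild type and 145, 199 and 227 in the mutants (log2 change -2.30). Dppa2 and Dppa4 encode a chromatin-binding pair of SAP domain proteins. Dppa2 went from 5.77, 2.3 and 1.98 to 0.114, 0.219 and 0.209 (log2 change -2.37), and Dppa4 from 22.8, 20.3 and 20 to 4.67, 4.57 and 6.86 (log2 change -1.90). Dppa3 (Stella), a maternal and germ cell factor, went from 4.92, 6.98 and 5.25 to 1.32, 1.34 and 1.62 (log2 change -1.68). The others that fell were Tcl1 (-1.92), Spp1 (-2.07), Klf5 (-1.41) and Tbx3 (-1.10), in log2 change. Among these members wild-type replicate 1 was again the highest wild-type library for Tdh, Dppa5a, Dppa2, Dppa4, Tcl1, Spp1 and Tbx3, but not for Dppa3 or Klf5. Klf5 and Tbx3 missed the call without wild-type replicate 1, which left 12 of the 23 called, and Klf5 did so without each of the other libraries compared except wild-type replicate 2. Leaving aside genes of chromosomes 8 and 14, described further on, left 10.

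The naive network did not fall as a whole. Nanog, the homeodomain factor at its core, was at 77.5, 55.6 and 60.6 in wild type and 105, 107 and 113 scaled RPKM in the mutants, and its log2 change of 0.75 ± 0.25 (limma adjusted p = 0.037) was positive but below the size required. Tfcp2l1, another naive factor, had a log2 change of -0.97 ± 0.23 (limma adjusted p = 0.0046), just short of that size. Of the 21 core and primed pluripotency genes 1 fell and none rose, the list's median log2 change being 0.38. The gene that fell was Dnmt3l, a catalytically inactive partner of the de novo DNA methyltransferases, at 22.9, 18.1 and 17.1 in wild type and 1.34, 1.9 and 2.91 in the mutants (log2 change -2.99 ± 0.35, limma adjusted p = 1.6e-06). Its catalytic partners gave log2 changes of 0.38 for Dnmt3a and 0.46 for Dnmt3b, with limma adjusted p of 0.082 and 0.31. Dnmt3l was thus the only 1 of the 8 tested DNA methylation enzymes and cofactors to be called.

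Another broad fall was in genes of the trophoblast. Of 27 listed genes 23 were tested, 14 fell and none rose, against 2.48% lower and 0.873% higher among all genes tested. The list's median log2 change was -1.18, and 7 of 12 tested factors and 7 of 11 structural or placental genes fell. Among the members not called, 2 had a positive log2 change, of at most 1.12. The trophoblast marker Cdx2 had one of 0.39 (limma adjusted p = 0.54). Ascl2, a basic helix-loop-helix factor of the ectoplacental cone, went from 11.3, 23.4 and 14.4 to 1.77, 1.41 and 1.82 scaled RPKM (log2 change -2.90 ± 0.39, limma adjusted p = 1e-05). Gata2, a zinc finger factor of trophoblast giant cells and of blood, went from 5.59, 9.01 and 6.66 to 0.493, 0.637 and 0.655 (log2 change -2.77 ± 0.3, limma adjusted p = 5.6e-07). Every mutant value of both genes lay far below the lowest wild-type value. Tfap2c, an AP-2 factor of trophoblast stem cells and germ cells, went from 8.86, 12.6 and 10.5 to 2.17, 2.85 and 3.11 (log2 change -1.80). Tead4, the factor that initiates trophectoderm in the mouse, went from 2.91, 3.22 and 2.9 to 1.02, 1.01 and 1.1 (log2 change -1.18, but -0.97 and not called with a constant of 1). Hand1, which drives giant cell differentiation as well as lateral plate and heart development, went from 133, 201 and 148 to 55.3, 66 and 67.6 (log2 change -1.33 ± 0.28, limma adjusted p = 0.0014). Its call was lost with a constant of 0.1 in place of 0.5 (log2 change -1.33, limma adjusted p = 0.056).

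Simple epithelial keratins carried the largest absolute decrease of the group. Krt8 stood at 927, 1056 and 917 scaled RPKM in wild type and 278, 293 and 429.7 in the mutants, Krt18, its partner in the filament, at 857, 1076 and 869.9 in wild type and 384, 383 and 472 in the mutants, and Krt7 at 14.6, 19.7 and 15.8 in wild type and 3.31, 4.33 and 3.43 in the mutants. Their log2 changes were -1.56, -1.18 and -2.04. Peg10, a paternally expressed gene of retrotransposon origin needed for the mouse placenta, went from 83.2, 118 and 69.3 to 11.6, 14.4 and 10.9 (log2 change -2.80 ± 0.3, limma adjusted p = 5.2e-07). Plac1, a placental gene of the X chromosome, went from 9.09, 18 and 8.55 to 1.36, 2.39 and 1.91 (log2 change -2.32). Sct, the hormone secretin, went from 8.59, 17 and 7.45 to 1.45, 1.19 and 2.15 (log2 change -2.39). In Peg10, Plac1 and Sct, wild-type replicate 2 was the highest of the 6 libraries. The remaining members called were the homeobox genes Esx1 (-1.15) and Dlx3 (-1.20) and the epithelial surface gene Plet1 (-1.04). Plet1 missed the required size with a constant of 1 (-0.83), with every library scaled to the same sum (-0.94) and without wild-type replicate 2 (-0.83). Without wild-type replicate 1 the list had 15 falls, and all 14 lay outside chromosomes 8 and 14.

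**Figure D2:**
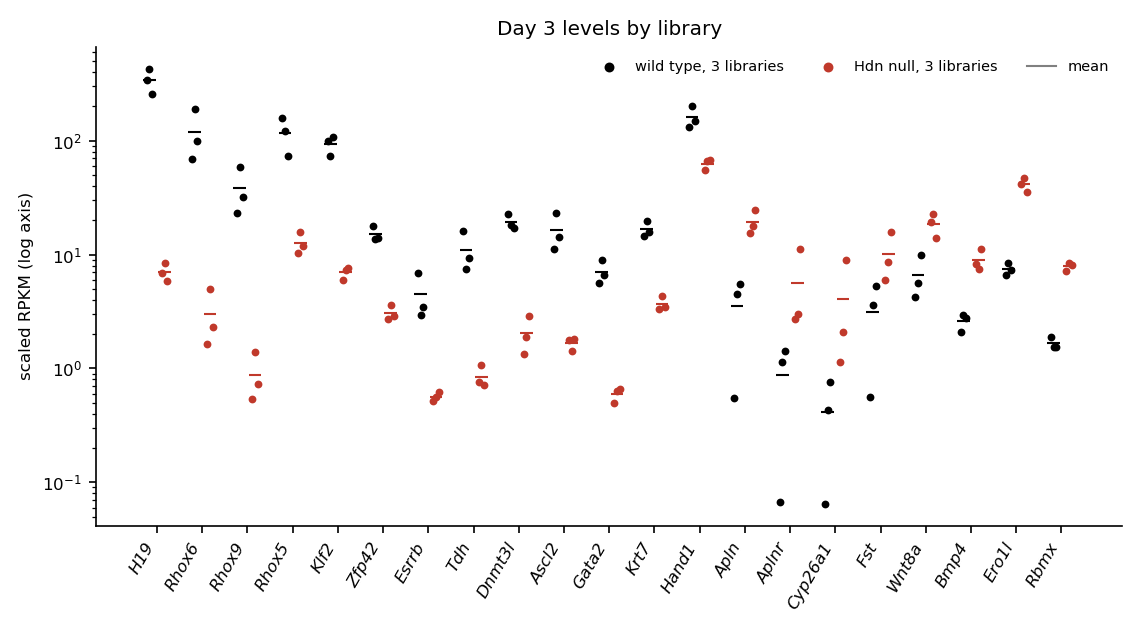
Scaled RPKM of 21 genes on a log axis in each of the 3 wild-type (black) and 3 Hdn null (red) day 3 libraries, with a short line at each group mean. The groups do not overlap for any of the genes drawn, as for Klf2, where the mutants span 5.97 to 7.59 and the wild type 74.1 to 108, while the lowest black points of Apln, Aplnr, Cyp26a1 and Fst are all wild-type replicate 1.

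Genes of the germ line and the Rhox cluster fell in part. Of 10 tested Rhox homeobox genes, a family expressed from the X chromosome in germ cells, gonads and placenta, 3 fell. Rhox6 went from 69.1, 189 and 100.3 to 1.64, 5.03 and 2.33 scaled RPKM (log2 change -5.09 ± 0.49, limma adjusted p = 1.4e-07). Rhox9 went from 23.4, 59.1 and 31.8 to 0.535, 1.38 and 0.729 (log2 change -4.74 ± 0.46, limma adjusted p = 1.6e-07). Rhox5, the founding member of the family, went from 157, 123 and 73.8 to 10.3, 15.7 and 11.8 (log2 change -3.13 ± 0.31, limma adjusted p = 1.9e-07). The other 7 tested members had log2 changes between -0.69 and -0.03, the largest being that of Rhox1 (limma adjusted p = 0.026). Rhox6 and Rhox9 are close in sequence, and how reads matching both were assigned is not given, so the split between them is uncertain.

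The Rhox5 promoter is printed for contrast with the GC-rich Klf2 promoter (RefSeq, GRCm38.p6, chrX:37754358-37754657, plus strand, CG pairs in capitals).
Rhox5: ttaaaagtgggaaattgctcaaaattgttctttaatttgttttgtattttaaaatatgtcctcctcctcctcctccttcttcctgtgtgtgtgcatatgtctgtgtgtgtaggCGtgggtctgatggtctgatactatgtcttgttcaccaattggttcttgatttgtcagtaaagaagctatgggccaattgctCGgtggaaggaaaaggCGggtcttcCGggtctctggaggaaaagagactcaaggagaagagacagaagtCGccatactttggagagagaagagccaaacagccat
It holds 5 CG pairs and 43.7% G or C, and 43.6% of the 32851 promoters hold as many pairs or fewer.

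Of 13 tested germ cell genes 5 fell, against 2.48% of all genes tested, and none rose. Besides Tfap2c and Dppa3 these were Tex19.1, a retrotransposon silencing gene, at 7.96, 7.25 and 6.85 in wild type and 0.857, 0.997 and 1.69 in the mutants (log2 change -2.25), and the interferon-inducible membrane genes Ifitm3 (-1.24) and Ifitm1 (-1.01, not called without wild-type replicate 1). Aire, the autoimmune regulator, went from 0.914, 0.867 and 1.2 to 0.165, 0.176 and 0.266 (log2 change -1.08, limma adjusted p = 0.021), a call lost without mutant replicate 1 or 2 and without wild-type replicate 3. Fthl17a, a ferritin heavy chain-like gene, went from 2.97, 4.82 and 2.59 to 0.0817, 0.215 and 0.111 (log2 change -2.60). Pramef12 of the PRAME family went from 18.6, 31.6 and 23.8 to 3.47, 3.65 and 5.02 (log2 change -2.45). Ldoc1, a retrotransposon-derived gene, averaged 7.17 ± 3.96 in wild type and 0.361 ± 0.214 in the mutants (SD, n = 3, log2 change -3.05). Of 520 tested genes of the X chromosome 33 fell (6.35%) and 6 rose (1.15%), against 2.48% and 0.873% of all genes tested.

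The largest fall of all was in an imprinted gene. H19, a noncoding RNA expressed from the maternal allele, was at 339, 429 and 259 scaled RPKM in wild type and 6.83, 8.51 and 5.9 in the mutants (log2 change -5.48 ± 0.35, limma adjusted p = 8e-10). Its reciprocally imprinted neighbour, the growth factor gene Igf2, fell as well, from 83.9, 185 and 129 to 45.7, 52.8 and 55.1 (log2 change -1.30 ± 0.3, limma adjusted p = 0.0039). The call of Igf2 was lost with a constant of 0.1 (limma adjusted p = 0.05 after rounding). Of 25 tested imprinted genes 5 fell and 2 rose, and the list's median log2 change was 0.08. Cdkn1c, a cyclin-dependent kinase inhibitor expressed from the maternal allele, fell (-1.51). The rises were in Dlk1, a paternally expressed Notch-like membrane gene, at 1.68, 0.634 and 0.491 in wild type and 5.42, 4.49 and 4.95 in the mutants (log2 change 2.01, limma adjusted p = 0.016), and in the maternally expressed adaptor gene Grb10, at 7.47, 9.08 and 7.59 in wild type and 18.5, 18.1 and 13.9 in the mutants (log2 change 1.02). The call of Dlk1 was lost without mutant replicate 1, without wild-type replicate 2 and without wild-type replicate 3, with limma adjusted p of 0.053, 0.059 and 0.071. Grb10 lay at the size limit and dropped to 0.94 to 0.98 without mutant replicate 1 or 2 or wild-type replicate 1 or 3.

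Apelin signalling gave the largest rise. Apln, the apelin peptide that guides mesodermal and endothelial migration, was at 0.552, 4.53 and 5.57 scaled RPKM in wild type and 15.5, 17.8 and 24.4 in the mutants (log2 change 2.61 ± 0.49, limma adjusted p = 0.00058). Its receptor Aplnr was at 0.0671, 1.15 and 1.43 in wild type and 2.7, 3 and 11.3 in the mutants (log2 change 2.07 ± 0.59, limma adjusted p = 0.018). The other ligand of that receptor, Apela (Toddler), was at 39.2, 34.3 and 32.3 in wild type and 31.1, 35.3 and 35.7 in the mutants (log2 change -0.05, limma adjusted p = 0.92). Wild-type replicate 1 was the lowest library for both risers, and mutant replicate 3 the highest. Apln was still called without either, whereas Aplnr had a log2 change of 1.52 (limma adjusted p = 0.13) without wild-type replicate 1 and 1.46 (0.13) without mutant replicate 3.

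Primitive streak genes leaned upward, but few passed the test. Of 21 tested genes of the list 2 rose and none fell, and 19 had a positive log2 change, with a median of 0.67 against -0.01 over all genes. These figures, and the changes of T, Mesp1 and Eomes below, include wild-type replicate 1, the lowest library for those genes. Fst, the activin and BMP inhibitor follistatin, was at 0.566, 3.62 and 5.29 in wild type and 6.04, 8.62 and 15.7 in the mutants (log2 change 1.75 ± 0.58, limma adjusted p = 0.04). Wnt8a, a ligand of the posterior streak, was at 4.27, 5.65 and 9.96 in wild type and 19.5, 22.7 and 13.9 in the mutants (log2 change 1.48 ± 0.39, limma adjusted p = 0.0099). Without wild-type replicate 1 neither was called, at log2 changes of 1.02 (limma adjusted p = 0.28) and 1.23 (0.066). Both calls were also lost without mutant replicate 2 and with a constant of 0.1. That of Fst was lost as well without mutant replicate 3, without the filter and in a fit of the 6 libraries alone. T had a log2 change of 1.4 ± 0.71 (limma adjusted p = 0.2). Its wild-type values outside replicate 1, 65.0 and 123, overlapped the mutant range of 72.2 to 190. Mesp1, the factor of nascent cardiac mesoderm, was at 0, 0.77 and 0.936 in wild type and 1.35, 1.73 and 21.6 scaled RPKM in the mutants (log2 change 2.21 ± 0.88, limma adjusted p = 0.092), and mutant replicate 3 alone exceeded 2. Eomes, a T-box factor of the streak, was at 1.6, 3.31 and 6.4 in wild type and 6.68, 6.67 and 10.5 in the mutants (log2 change 1.12, limma adjusted p = 0.086), and the 2 groups did not overlap.

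In the same direction, Cyp26a1, the enzyme that degrades retinoic acid in the streak, was the only 1 of 10 tested retinoic acid genes to rise, at 0.0646, 0.43 and 0.757 in wild type and 1.15, 2.08 and 9 in the mutants. Its log2 change was 1.98 ± 0.55 (limma adjusted p = 0.015), 1.67 (limma adjusted p = 0.083) without wild-type replicate 1, 1.24 (limma adjusted p = 0.13) without mutant replicate 3, and 1.98 (limma adjusted p = 0.081) in a fit of the 6 libraries alone. The summed fibroblast and red cell marker levels given above differed between that library and the others along with these genes, and their part in the streak results was not tested.

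Of the other large rises, several showed 3 mutant values in a narrow range far above wild type. Rbmx, an X-linked RNA-binding protein gene, was at 1.9, 1.55 and 1.55 scaled RPKM in wild type and 7.18, 8.49 and 8.1 in the mutants (log2 change 1.96 ± 0.13, limma adjusted p = 8e-10). Zfp993, a zinc finger gene, was at 7.91, 7.21 and 8.16 in wild type and 25.4, 30.7 and 28.8 in the mutants (log2 change 1.80). Hist3h2ba, a histone H2B gene, was at 3.14, 4.82 and 3.79 in wild type and 14.2, 14.7 and 14.6 in the mutants (log2 change 1.78). Histone, zinc finger, keratin and Rbmx-like genes have near-identical copies, so the exact source of these reads is uncertain. Adm2, the peptide hormone intermedin, was at 1.25, 2.56 and 2.15 in wild type and 7.79, 7.35 and 9.19 in the mutants (log2 change 1.83 ± 0.28, limma adjusted p = 5.4e-05). Prickle1, a planar cell polarity gene, was at 3.32, 4.16 and 6.22 in wild type and 17.9, 18.4 and 14.2 in the mutants (log2 change 1.80 ± 0.21, limma adjusted p = 1.3e-06). Ero1l, Dlgap5, Fam213a and Dydc2 complete the largest rises with symbols, and all 4 lie on chromosome 14.

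A microRNA gene was among the largest rises. Mir302b belongs to the miR-302 cluster, which is abundant in primed stem cells. Its mature RNA (RefSeq, chr3:127545275-127545297, plus strand) is shown with its seed, bases 2 to 8, in capitals.
mmu-miR-302b-3p: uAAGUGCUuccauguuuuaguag
The same seed occurs in 5 mature mouse microRNAs in the RefSeq table, those of Mir291a, Mir294, Mir295, Mir302b and Mir302d. Mir302b was at 0.516, 0.229 and 0.806 scaled RPKM in wild type and 3.69, 3.65 and 1.75 in the mutants (log2 change 1.78 ± 0.42, limma adjusted p = 0.0048), a call that was lost with a constant of 0.1. The other 4 are listed at 0 in all 6 libraries. These libraries were made from total RNA and not from size-selected small RNA, so the values reflect reads over the hairpin and not mature microRNA. The Mir302b gene spans only chr3:127545228-127545301, so its values rest on few reads.

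In the BMP pathway, whose ligand was added to every culture, 2 of 30 tested genes rose and 1 fell, and the median log2 change was 0.08. The ligand gene Bmp4 rose, from 2.1, 2.95 and 2.78 to 8.33, 7.41 and 11.3 scaled RPKM (log2 change 1.60 ± 0.39, limma adjusted p = 0.0057). The receptor Bmpr1a averaged 6.82 ± 0.434 and 12.9 ± 1.20 (SD over 3 libraries, log2 change 0.87, limma adjusted p = 0.0054, below the size required). Both lie on chromosome 14. None of the 5 tested receptors or 4 transducers was called, and Fst was the only inhibitor of 10 called. Of 7 targets, Msx2, a homeobox gene, fell from 20.5, 21.2 and 14.6 to 6.07, 6.74 and 9.75 (log2 change -1.27 ± 0.21, limma adjusted p = 0.00014), while the Id genes, which respond directly to BMP in many cells, had log2 changes from -0.31 (Id3) to 0.10 (Id4), none of them called.

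In the Wnt pathway 1 of 32 tested genes rose and 3 fell. The fall of Dkk1, a secreted Wnt inhibitor, was the clearest, from 14.1, 14.6 and 9.74 to 2.25, 2.67 and 3.99 scaled RPKM (log2 change -1.95 ± 0.18, limma adjusted p = 6.2e-08). Wnt6, a ligand of surface ectoderm, went from 27.1, 22.5 and 19 to 5.98, 7.57 and 7.77 (log2 change -1.61), and Cdx1, a caudal-type target, from 3.18, 1.86 and 2.02 to 0.565, 0.604 and 0.888 (log2 change -1.25). Without wild-type replicate 1, Dkk1 was the only 1 of the 4 still called. The calls of Wnt6 and Cdx1 were also lost without mutant replicate 1 and without mutant replicate 2. That of Wnt6 was lost as well without wild-type replicate 2 and without the filter, and that of Cdx1 with a constant of 1. Lef1, a nuclear effector of the pathway, was at 0.498, 0.578 and 0.744 in wild type and 1.35, 1.3 and 1.3 in the mutants (log2 change 0.72, limma adjusted p = 0.00094), short of the size required. None of 8 tested receptors was called.

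Of 13 tested Nodal pathway genes 2 rose and 1 fell. Besides Fst, the coreceptor Cfc1 (Cryptic) rose from 0.202, 0.0814 and 0.402 to 1.84, 1.3 and 2.21 (log2 change 1.65), and the ligand Gdf3 fell from 26.4, 13.6 and 12.7 to 8.22, 8.82 and 6.91 (log2 change -1.02). None of these 3 was called without wild-type replicate 1, nor without mutant replicate 3. Of 18 tested FGF genes, Etv4, a transcriptional target of the pathway, fell from 7.95, 5.38 and 8.13 to 2.69, 3.09 and 3.25 (log2 change -1.11). Its call was lost in 2 of the alternatives, and no other FGF gene was called. No Notch gene was called among 11 tested, with log2 changes from -0.3 to 0.63.

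**Figure D3:**
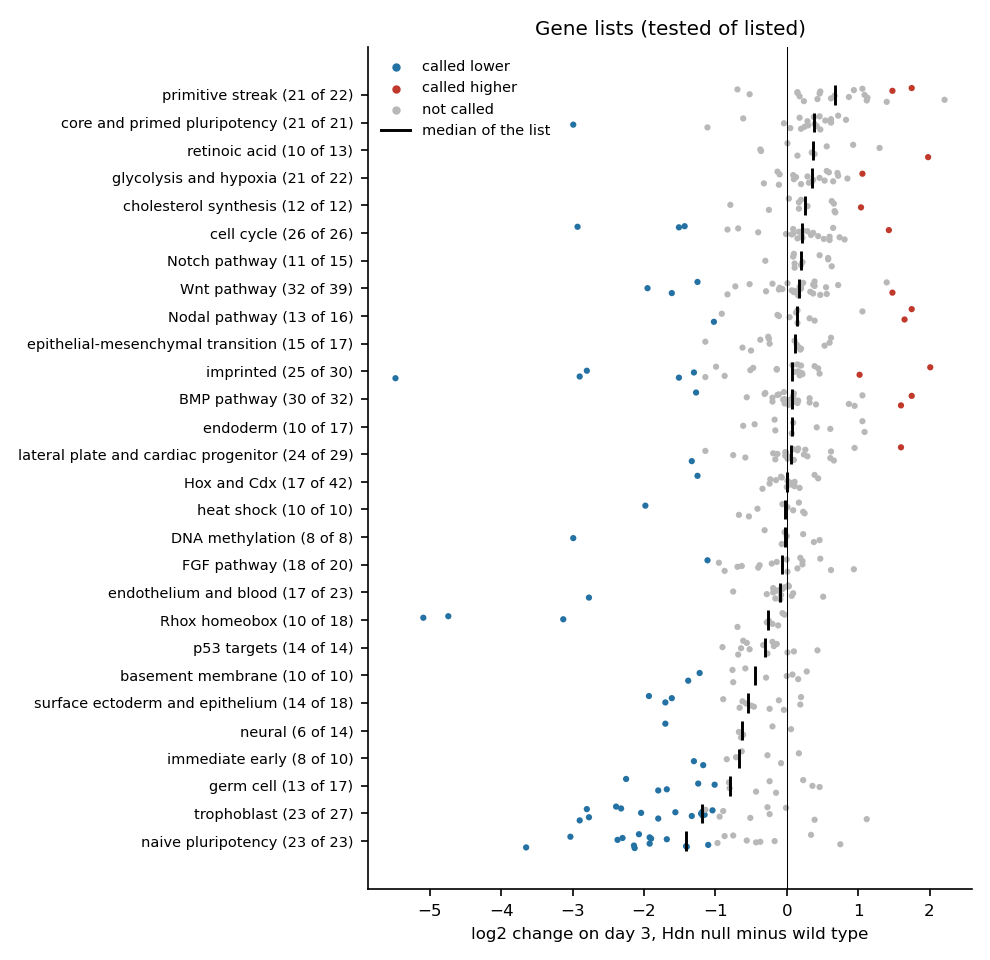
Each line of points is a gene list, with the number of members tested of those listed, and each point a tested member at its log2 change on day 3, Hdn null minus wild type. Blue and red points passed the test and black ticks mark list medians, which among the lists drawn lie furthest to the left for naive pluripotency (-1.41) and trophoblast (-1.18) and furthest to the right for primitive streak (0.67). The apelin list, the locus list and the lists used to check the libraries are not drawn.

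The remaining fate lists had at most 3 called members each. Over all genes tested 3.35% were called, 0.873% higher and 2.48% lower, and the lists were not tested against these shares. In the lateral plate and cardiac progenitor list 24 of 29 genes were tested, and Bmp4 and Hand1 were the only members called. None of 10 tested endoderm genes was called. Of 17 tested endothelial and blood genes only Gata2 was called, and of 6 tested neural genes only Tubb3, a tubulin gene, at 42.7, 35.2 and 23.2 in wild type and 7.57, 10.4 and 11.7 in the mutants (log2 change -1.70). Of 14 tested surface ectoderm and epithelial genes 3 fell. These were Wnt6, the tight junction gene Cldn4, from 220.3, 196 and 217 to 57.6, 60 and 77.6 (log2 change -1.70 ± 0.25, limma adjusted p = 3e-05), and the splicing regulator Esrp2, from 4, 4.87 and 5.18 to 0.857, 0.803 and 0.9 (log2 change -1.93 ± 0.27, limma adjusted p = 1.5e-05). The adhesion gene Cdh1 (E-cadherin) was at 109.7, 95.3 and 119.5 in wild type and 89.4, 76.8 and 64 in the mutants (log2 change -0.50, limma adjusted p = 0.21), and none of 15 tested genes of the epithelial-mesenchymal transition was called. Of 17 tested Hox and Cdx genes Cdx1 alone was called.

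Of 26 tested cell cycle genes 1 rose and 3 fell, and none of the mitotic and replication genes was called. Cdkn2a, the locus of the inhibitors p16 and p19, went from 45.1, 34.3 and 28.9 to 3.3, 4.16 and 5.45 scaled RPKM (log2 change -2.93 ± 0.27, limma adjusted p = 8.7e-08). Its neighbour Cdkn2b (p15) went from 14.6, 10.9 and 10.1 to 4.58, 3.31 and 4.28 (log2 change -1.43 ± 0.2, limma adjusted p = 1.8e-05). Ccnd2, cyclin D2, rose from 1.05, 0.883 and 0.888 to 3.45, 3.76 and 2.94 (log2 change 1.43 ± 0.2, limma adjusted p = 1.8e-05). The median log2 changes were 0.52 for 9 mitotic genes and 0.13 for 8 replication genes. Of 14 tested p53 targets none was called (median -0.30), the smallest adjusted p being that of Phlda3, at 235, 234 and 269 in wild type and 136, 104 and 161 in the mutants (log2 change -0.90, limma adjusted p = 0.012).

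The metabolic, stress and matrix lists had 1 or 2 called members each. Over all genes tested 0.873% were higher and 2.48% lower, and no list was tested against these shares. In the glycolysis and hypoxia list 17 of 21 tested genes had a positive change (median 0.35), and only the mitophagy gene Bnip3 was called, from 9.18, 11.2 and 9.66 to 17.3, 26.2 and 21.5 (log2 change 1.06), a call lost without any single library of the 6 except mutant replicate 1 and wild-type replicate 2. Pgk1, phosphoglycerate kinase, was at 709, 978 and 987 in wild type and 1446, 1519 and 1826 in the mutants (log2 change 0.85, limma adjusted p = 0.0031). Of 12 tested cholesterol synthesis genes only Idi1, isopentenyl diphosphate isomerase, rose, from 33.2, 35 and 31 to 66.9, 65.3 and 74.3 (log2 change 1.04), a call at the size limit that was lost without mutant replicate 3 (0.99) and without wild-type replicate 3. Hspb1, a small heat shock protein, was the only 1 of 10 chaperones called and fell from 1185, 1103 and 783 to 228, 219 and 335 (log2 change -1.98 ± 0.25, limma adjusted p = 5.1e-06). Of 8 tested immediate early genes Fos (-1.17) and Junb (-1.30) fell, and of 10 basement membrane genes Col4a2, a collagen IV chain (-1.38), and Nid1, nidogen (-1.22), did so. With a constant of 1 the log2 change of Nid1 was -0.91 and its call was lost. Vgf, a secreted neuropeptide precursor, was among the 15 largest falls, from 33.3, 40.5 and 52.7 to 4.37, 5.22 and 8.81 (log2 change -2.72 ± 0.34, limma adjusted p = 3.8e-06).

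Position on the chromosome went with the direction of change. Of the 13674 tested genes that could be placed, chromosome 8, which carries Hdn and Hand2, held 753. None of these rose and 50 fell (6.64%, against 2.48% of all genes tested), and 87.5% had a negative log2 change. The median was -0.41, against medians from -0.07 to 0.11 on the X chromosome and the autosomes other than 8 and 14. The library medians for chromosome 8 were -0.03, 0.00 and 0.03 in wild type and -0.38, -0.41 and -0.39 in the mutants, relative to the wild-type mean, so every mutant library showed the offset at a similar size. Among the better expressed genes, those at a mean of 5 scaled RPKM or more, 382 of 415 were negative, with a median of -0.50. It extended along the chromosome, with medians between -0.56 and -0.19 in the 15 windows of 5 Mb that held at least 20 tested genes. The median was -0.40 in undifferentiated cells, -0.41 on day 4, -0.34 on day 5 and -0.37 on day 6, which are comparisons that share no libraries. In undifferentiated cells the other autosomes and X were more spread, with medians from -0.26 to 0.06.

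**Figure D4:**
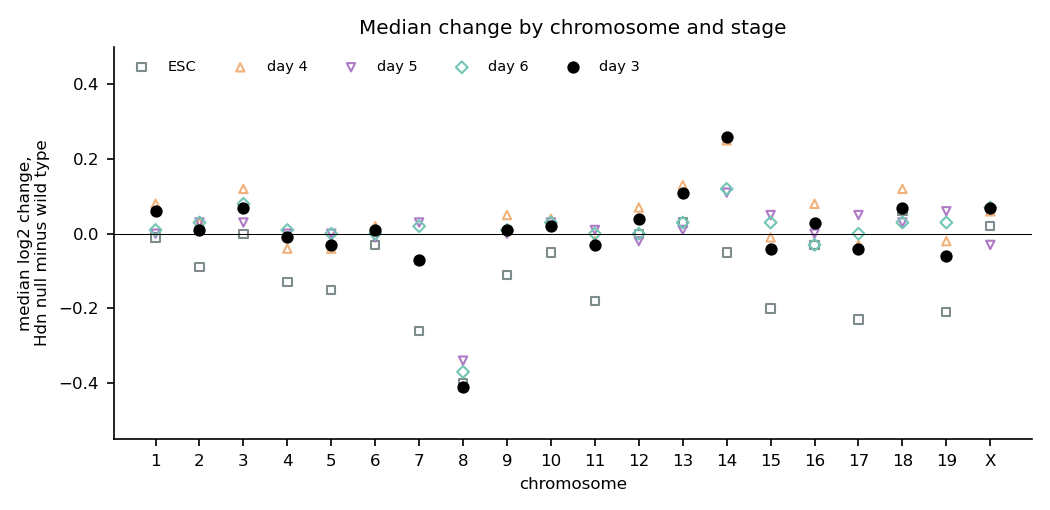
Median log2 change (Hdn null minus wild type) of the tested genes of each chromosome on day 3, as black dots, and in undifferentiated cells (ESC) and on days 4, 5 and 6, as open symbols. Chromosome 8 lies apart at -0.41 on day 3 and between -0.41 and -0.34 at the other stages, and chromosome 14 lies at 0.26 on day 3.

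Chromosome 14 was divided into stretches of opposite sign. It held 44 of the 124 rises and 31 of the 352 falls among 494 tested genes. These are 8.91% and 6.28% of its tested genes, against 0.873% and 2.48% of all genes tested. In the 170 genes before Ero1l, 11 rose and 1 fell, with a median log2 change of 0.42. In the 28 genes from Ero1l to Ktn1 (chr14:45283087-47736564), 17 rose and none fell, 25 were positive and the median was 1.41. After Ktn1 and before Rnaseh2b, 16 of 138 genes rose and none fell, with a median of 0.57. From Rnaseh2b, which starts at position 62332068, to the end of the chromosome, none of 158 genes rose and 30 fell, 136 were negative and the median was -0.63. The stretches were chosen after the values were seen, so their counts are a description with no test.

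The mutant libraries were alike in this pattern. Their medians were 1.46, 1.44 and 1.27 for Ero1l to Ktn1 and -0.60, -0.60 and -0.59 for the stretch from Rnaseh2b, while the wild-type medians lay between -0.05 and 0.02 in both. The median from Rnaseh2b onward was -0.52 in undifferentiated cells, -0.53 on day 4, -0.61 on day 5 and -0.59 on day 6. For Ero1l to Ktn1 it was 0.67, 1.54, 1.09 and 0.96 at those stages, and for the stretch after Ktn1 it was -0.22, 0.57, 0.48 and 0.35. The stretch after Ktn1 was therefore the only 1 of the 4 whose median changed sign between undifferentiated cells and day 3. The data are RNA levels alone. The number of copies of these stretches was not measured here, and the cause of the pattern was not tested.

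**Figure D5:**
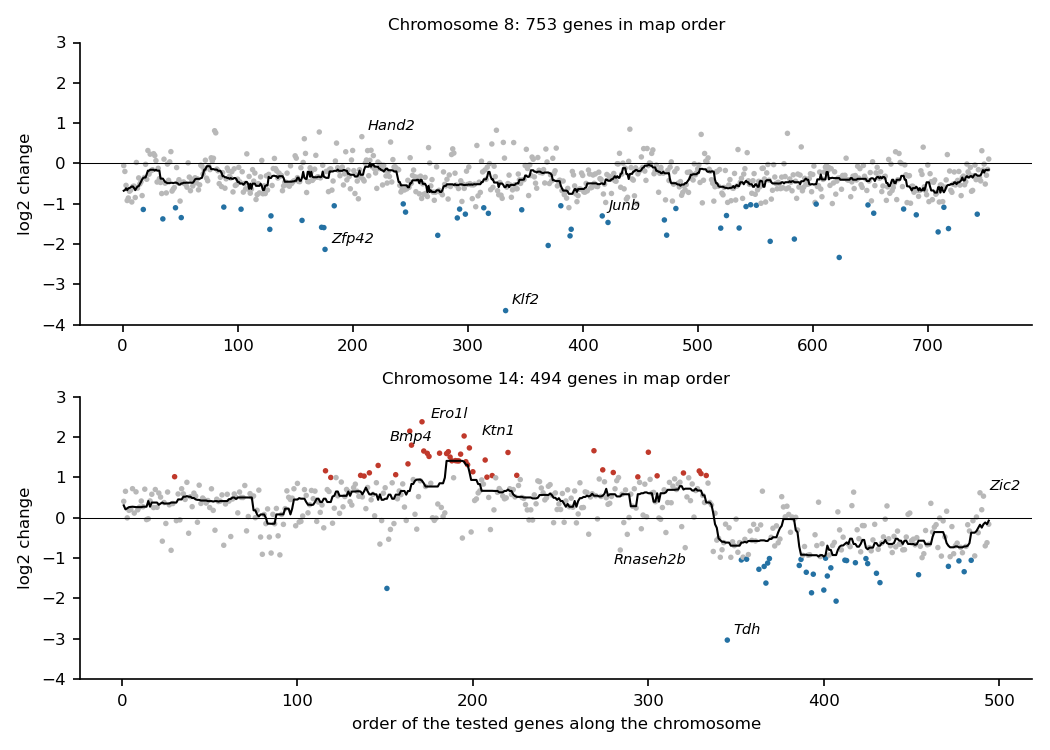
Log2 change on day 3 (Hdn null minus wild type) for each tested gene of chromosomes 8 and 14 in map order, with rises in red, falls in blue and a running median as a line. The line stays at or below 0 along nearly all of chromosome 8, peaks between Ero1l and Ktn1 on chromosome 14 and drops below 0 at Rnaseh2b.

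Several unrelated neighbours within the peak of chromosome 14 rose. Psmc6, a proteasome ATPase, was at 58.7, 65.9 and 59.7 scaled RPKM in wild type and 185, 200.2 and 198 in the mutants (log2 change 1.66 ± 0.17, limma adjusted p = 2.8e-07). Cnih1, a cargo receptor of the secretory pathway, was at 70.6, 77 and 67.4 in wild type and 220.3, 226 and 226 in the mutants (log2 change 1.64 ± 0.15, limma adjusted p = 6.6e-08). Fermt2, the integrin activator kindlin-2, was at 13.2, 11.1 and 10.7 in wild type and 35.1, 36.4 and 31.7 in the mutants (log2 change 1.52). Gch1, the first enzyme of tetrahydrobiopterin synthesis, was at 2.6, 3.43 and 2.41 in wild type and 8.2, 7.49 and 9.26 in the mutants (log2 change 1.42). Bmp4 lies among them, and its change exceeded the median of the stretch by 0.19. Above the stretch's median were also Dlgap5, a mitotic spindle gene, from 7.05, 6.36 and 7.54 to 29.8, 31.1 and 29 (log2 change 2.03), and Ero1l, the oxidase that drives disulfide formation, from 6.67, 8.46 and 7.39 to 41.4, 47 and 35.5 (log2 change 2.38). Of the members not called, Styx (0.78), Ddhd1 (0.86) and Samd4 (0.99) were higher in value, and the galectin gene Lgals3 (-0.50) was lower. The others were Gm7206 (0.00), Gm8317 (-0.06), Gm1821 (-0.01), E130120K24Rik (0.03), Rubie (0.12), Gm15222 (0.26) and Gm15217 (0.34).

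Some large changes on these chromosomes far exceeded the offset around them. Klf2 lay -3.24 from the median of chromosome 8 on the log2 scale, Zfp42 -1.72, Esrp2 -1.52 and Tubb3 -1.29. Tdh lay -2.40 from the median of the stretch from Rnaseh2b. Fam213a, a thioredoxin-like gene on the first part of chromosome 14, at 6.87, 5.68 and 5.79 in wild type and 34.7, 36 and 19 in the mutants, lay 1.73 above its surroundings, and Dydc2 1.38. Klf5 on chromosome 14 and Junb and Col4a2 on chromosome 8 lay -0.78, -0.89 and -0.97 from theirs. Leaving out both chromosomes reduced the counts over all genes to 80 rises and 271 falls.

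The day 3 differences were partly present before differentiation and partly found again a day later. Of the 124 genes that rose on day 3, 35 were higher in undifferentiated mutant cells than in wild-type ones and 1 was lower, and of the 352 that fell 66 were lower there and 6 were higher. Over all genes 8.55% were higher and 3.13% lower in undifferentiated mutants. On day 4, 60 of the 124 (48.4%) were higher and none lower, and 192 of the 352 (54.5%) were lower and 1 higher, against 2.37% and 2.81% of all genes. Mutant day 4 replicate 3 held 905 reads of Hbb-bs and 1986 of Myl2, and without it the counts were 71 of 124 and 172 of 352, against 2.46% and 2.33%. In wild-type undifferentiated cells 52 of the 124 rises (41.9%) and 89 of the 352 falls (25.3%) averaged below 1 scaled RPKM, against 22.7% of all genes tested.

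Whether the difference between genotypes itself changed from undifferentiated cells to day 3 was tested as a difference of differences. It was higher on day 3 for 302 genes (2.13% of 14196) and lower for 1049 (7.39%), and the count of higher ones was 547 without mutant undifferentiated replicate 1. For Zfp42 the log2 change was 1.11 in undifferentiated cells and -2.13 on day 3, and the difference of -3.24 ± 0.23 passed the test (limma adjusted p = 7.4e-09). For H19 it was -0.49 and -5.48, a difference of -4.99 ± 0.49 (limma adjusted p = 3.6e-07). For Klf2 it was -1.36 and -3.65, and the difference of -2.29 ± 0.88 did not pass (limma adjusted p = 0.063). The naive list's median log2 change was -0.23 in undifferentiated cells, -1.41 on day 3 and -1.13 on day 4. The Y-linked gene Eif2s3y, an initiation factor subunit, averaged 0.368 scaled RPKM in wild-type and 12.1 in mutant undifferentiated cells, against 3.79 and 6.66 on day 3, and the part of this in the difference of differences was not tested.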

How the data were processed

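Expression was deposited by the authors as RPKM, 1 value per gene and library, for 52636 Ensembl genes in 30 libraries of total RNA (ScriptSeq v2, per the labels' protocols). The submitters' processing notes name STAR, DESeq2 and mm10, and no version, annotation, counting method or use of strand is given in the sources used here. In the deposited table the library names in the header stand 1 cell to the left of their values, and they were matched accordingly. Read totals were inferred from the spacing of low RPKM values, which are whole multiples of what 1 read is worth, and counts named as inferred reads come from the same step. Each library's RPKM values were divided by a median-ratio size factor from 11618 genes expressed in every library. The 14196 genes at 1 scaled RPKM or more in at least 3 of the 30 libraries were kept.

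Differences were tested on log2(scaled RPKM + 0.5) with limma 3.58.1 in R 4.3.3, with 1 mean for each of the 10 groups and a mean-variance trend, so all 30 libraries share 1 estimate of the spread. Log2 changes lie on that scale, which understates the change of low genes. P-values were adjusted by Benjamini-Hochberg over all genes kept. Values after ± beside a log2 change are standard errors, and 3 libraries per group limit the precision. Intervals and floors of inferred reads cover counting error only, since reads without molecular identifiers are not independent molecules. Symbols of 13674 of the 14196 genes (96.3%) matched a unique RefSeq gene of GRCm38.p6, which gave chromosome and order. Promoter and microRNA sequences are RefSeq's on the same build. A promoter entry existed for 67.3% of the tested genes, too few to compare promoters between sets of genes.

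Genes were named from the 15 largest rises and the 15 largest falls among called genes whose groups do not overlap, passing over unnamed and provisional symbols, from the 6 largest per direction for the change between undifferentiated cells and day 3, from the called members of 33 gene lists with up to 4 of the best-ranked where fewer were called, and from the Hdn and Hand2 locus and the marker lists for other cell types, which are mostly given as counts and sums. A gene on several lists counts under each. Id3 and Id4 and the stretches of chromosome 14 were chosen after their values were seen. The members and lists were chosen with earlier results of these data known. Alternatives were other constants, filters and scalings, a fit of the compared libraries alone, no trend, a replicate block and leaving out each library, and 2 more were chosen after seeing the data, which were leaving out chromosomes 8 and 14 and leaving out mutant day 4 replicate 3.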

Additional observations from a re-analysis of the deposited data

Results flagged for a closer look

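The difference between Hdn null and wild type itself differed between undifferentiated cells and day 3 for many genes, by the limma test of the difference of differences, being higher on day 3 for 302 genes (547 without mutant undifferentiated replicate 1) and lower for 1049. The 6 largest named differences in each direction are given as log2 changes.

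Among the lower ones, H19 (-4.99), Rhox6 (-4.98) and Rhox9 (-4.56) reached far higher levels in wild type than in the mutants by day 3. H19 averaged 1.35 scaled RPKM in wild-type and 1.05 in mutant undifferentiated cells, against 342 and 7.08 on day 3. Dnmt3l (-4.63) and Zfp42 (-3.24) turned around, being higher in mutant than in wild-type undifferentiated cells and lower on day 3. Zfp42 averaged 127 in wild-type and 279 in mutant undifferentiated cells, against 15.1 and 3.07 on day 3, and Dnmt3l 19.5 and 61.4, against 19.4 and 2.05. Aire (-3.61), at 0.294 and 4.64 before and 0.994 and 0.202 on day 3, did the same, although its day 3 call alone was lost in several alternatives.

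Among the higher ones, Apln (2.79) was barely expressed in undifferentiated cells, at 0.148 in wild type and 0.0708 in the mutants, and was higher in the mutants on day 3. Col9a2 (3.09), Mir6236 (2.68) and Zic2 (2.33) were lower in mutant than in wild-type undifferentiated cells and had no called difference on day 3. Zic2 missed the test in 7 of the fits that left out a library, with differences between 2.12 and 2.26 in those fits. Porcn (2.85), the acyltransferase that Wnt ligands need for secretion, averaged 8.68 in wild-type and 1.97 in mutant undifferentiated cells, against 4.33 and 8.08 on day 3. H2-Bl (2.64), a histocompatibility gene with near-identical copies, averaged 10.1 and 3.47 before and 2.81 and 7.32 on day 3. The differences share the Y-linked shift in the undifferentiated cells described above, and its part was not tested.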

How the results depend on the processing

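No named gene that was called on day 3 changed direction under any alternative. With a constant of 0.1 in place of 0.5 there were 200 rises and 656 falls on day 3, and by the adjusted p alone, without the size of 1, 880 rises and 1429 falls. Leaving aside chromosomes 8 and 14, chosen after seeing the data, left 80 rises. Falls of the difference of differences numbered 605 with a filter at 5 scaled RPKM. Leaving out 1 library at a time gave 102 to 131 rises and 330 to 380 falls on day 3, and 224 to 547 rises of the difference of differences, the highest without mutant undifferentiated replicate 1. Scaling every library to the same sum moved the median of all genes by 0.09 and gave 167 rises and 268 falls. The replicate block gave 127 rises and 357 falls. Deviations of same-numbered libraries correlated at 0.113, 0.075 and -0.049, against -0.52 to 0.381 for differently numbered ones. With 3 libraries per group these values cannot show whether same-numbered libraries shared a culture or batch. Of the 96 named genes called on day 3, 73 were called under every alternative with the same size rule that kept the gene in the test. Without wild-type replicate 1, 13 were lost. The cause of each change was not tested. Depth limits Hdn, Hand2 and Hand2os1, whose wild-type libraries held 4 reads or fewer each.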
